A study of Mus musculus with 6 samples.

Results

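The 39 genes described here code for enzymes and regulators of fatty acid, triglyceride and cholesterol synthesis. They were chosen by gene symbol among the 34685 genes with deposited normalized values, and each matched 1 row. They comprise 4 genes of fatty acid synthesis, 8 of fatty acid elongation and desaturation, 4 of glycerolipid synthesis, 15 of sterol synthesis, 2 of sterol transport and esterification, and 6 regulators. RNA was sequenced from HCA-1 tumors, which grow from a murine hepatocellular carcinoma (HCC) line and were established by subcapsular implantation in the livers of male C3H/HeNCrNarl mice (C3H in the labels) aged 6 to 8 weeks. The 3 tumor libraries labelled untreated (Controls 5, 6 and 7) were compared with the 3 from mice given GOx-DOX-LGP intravenously (GOx-DOX-LGP 1, 2 and 5). GOx-DOX-LGP is a lipid-gelatin-protamine nanogel loaded with glucose oxidase (GOx), which oxidizes glucose to gluconic acid and hydrogen peroxide, and with the anthracycline doxorubicin (DOX). The labels give injections on days 18, 19 and 20 yet they date the RNA analysis to day 17, following 3 h of circulation. The interval between the last dose and sampling is therefore not settled by them. The study's methods place the harvest on the day after the last dose for its quantitative PCR tumors. They give no harvest day for the sequenced tumors. The labels do not say whether untreated mice received an empty nanogel, and a single tumor line in 1 strain and sex limits the model.

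Hepatocytes make fatty acids from acetyl-CoA, lengthen and desaturate them, and esterify them to glycerol for storage or export. The same acetyl-CoA feeds the mevalonate pathway, which ends in cholesterol. SREBP-1c and ChREBP drive lipogenic genes in response to insulin and glucose, whereas SREBP-2 drives sterol genes when membrane cholesterol is low. SCAP escorts the SREBPs to the Golgi for cleavage, and the INSIG proteins hold SCAP back in the endoplasmic reticulum.

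Promoter windows of 4 members are shown because they hold the letters that most members were found to share. SREBP binds a sterol regulatory element, and a CCAAT box, which NF-Y binds, often lies close to it. RefSeq (GRCm38.p6) start sites were matched for 29 of the 39 genes, with 40 windows of 250 upstream bases. The windows of Hmgcs1 (chr13:119690101-119690350, plus strand), Mvk (chr5:114444019-114444268, plus strand), Fasn (chr11:120824548-120824797, minus strand) and Mlxipl (chr5:135089640-135089889, plus strand) are upstream of the annotated genes. Capitals mark matches to the CCAAT box on either strand and, in Hmgcs1, also the match to the sterol regulatory element.

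Hmgcs1: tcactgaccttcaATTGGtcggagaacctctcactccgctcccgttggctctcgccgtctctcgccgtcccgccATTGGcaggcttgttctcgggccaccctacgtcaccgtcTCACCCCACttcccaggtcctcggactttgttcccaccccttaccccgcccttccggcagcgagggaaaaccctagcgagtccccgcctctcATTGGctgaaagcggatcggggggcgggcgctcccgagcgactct
Mvk: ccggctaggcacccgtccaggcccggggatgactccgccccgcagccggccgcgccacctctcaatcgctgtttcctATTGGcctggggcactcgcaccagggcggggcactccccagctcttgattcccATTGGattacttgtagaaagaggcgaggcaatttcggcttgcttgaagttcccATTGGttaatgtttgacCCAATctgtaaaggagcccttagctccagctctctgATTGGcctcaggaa
Fasn: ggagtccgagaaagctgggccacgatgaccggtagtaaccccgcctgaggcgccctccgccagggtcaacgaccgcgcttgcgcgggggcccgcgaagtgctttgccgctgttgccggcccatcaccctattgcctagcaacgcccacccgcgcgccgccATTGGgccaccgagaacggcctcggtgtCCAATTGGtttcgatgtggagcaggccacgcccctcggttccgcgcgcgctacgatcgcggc
Mlxipl: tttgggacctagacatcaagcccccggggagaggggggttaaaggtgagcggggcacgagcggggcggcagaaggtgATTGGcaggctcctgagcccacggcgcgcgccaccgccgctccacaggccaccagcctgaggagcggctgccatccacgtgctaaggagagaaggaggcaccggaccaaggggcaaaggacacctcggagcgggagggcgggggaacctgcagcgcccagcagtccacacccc

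The CCAAT letters were found in 24 of the 29 member genes (82.8%) and in 37.5% of the 27025 genes searched. A gene counted if any of its windows held a match, and per window the shares were 62.5% and 33.8%. All 12 sterol synthesis genes with a window held the CCAAT letters. Hmgcs1, the synthase that begins the mevalonate branch, held 3 matches, and Mvk, mevalonate kinase, held 5. In Fasn, fatty acid synthase, a match on each strand overlapped to form a single run. The sterol regulatory element TCACNCCAC was found in 2 member genes (6.90%), Hmgcs1 and Mlxipl, against 1.22% of all genes, the latter in a second window inside the gene that is not shown. The E-box CACGTG was present in 24.1% of member genes and 6.86% of all genes, and GGGCGG, an Sp1 motif, in 69.0% and 35.4%. Per window the shares were 17.5% and 6.02% for the E-box and 60.0% and 32.7% for the Sp1 motif. For the sterol regulatory element they were 5.0% and 1.05%. Both strands were searched for each motif, and 1 pair of different motifs overlapped among the member windows, in Elovl1. These matches describe letters in the windows and are not measured binding sites.

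The libraries held 15529940 to 18401178 counts, and no member was at 0 in any of them. Values are counts scaled to library size (CPM) after scaling by TMM factors of 0.569 to 1.241. The control libraries differed widely from each other. The summed level of 10 hepatocyte markers was 563 CPM in Control 5, 116949 in Control 6 and 191790 in Control 7, compared with 3145, 1237 and 1746 CPM in GOx-DOX-LGP 1, 2 and 5. Alb, serum albumin, was at 353, 73804 and 128244 CPM in Controls 5, 6 and 7 and at 1893, 733 and 1061 CPM in the treated tumors. Afp is a fetal liver protein used as an HCC marker. It was at 4.91, 10.3 and 13.2 CPM in these controls and at 4.65, 2.25 and 4.94 CPM in the treated tumors. The 4 proliferation markers summed to 787, 231 and 32.6 CPM in the same controls and to 551 to 669.7 CPM in the treated tumors. Thus Controls 6 and 7 held far more RNA of hepatocyte markers and less of proliferation markers than the other 4 libraries. Differences between the groups are therefore given with all libraries, without Control 5 and, where they turn on it, against Control 5 alone, and these comparisons share libraries. In bulk tumors, fewer cells of a type and less RNA per cell cannot be told apart.

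Counts of the 39 genes made up 0.214% of Control 5, 2.06% of Control 6 and 2.32% of Control 7, and 0.318%, 0.282% and 0.299% of GOx-DOX-LGP 1, 2 and 5. Controls 6 and 7 therefore stood apart for lipogenic RNA as they did for hepatocyte markers. Much of this share came from Scd1, with 68.8% and 65.9% of the members' counts in Controls 6 and 7 and 10.9% in Control 5. Without Scd1 the members held 35024, 100128 and 129309 counts in Controls 5, 6 and 7. They held 43104, 37383 and 39064 counts in GOx-DOX-LGP 1, 2 and 5, so the gap was smaller. Across the 39 genes, the correlation (Pearson) of log2 CPM was 0.972 for Control 6 with Control 7, 0.366 for Control 5 with Control 6, and 0.966 to 0.978 between Control 5 and the 3 treated tumors. Across all genes tested, these correlations were 0.969, 0.730 and 0.966 to 0.975, so the same grouping of libraries was not particular to the members. Controls 6 and 7 were both above all 3 treated tumors for 35 of the 39 genes (89.7%), against 34.7% of the 15374 genes tested. Both were below all treated tumors for 3 genes, Scd2, Soat1 and Srebf2, which is 7.69% of the members and 37.2% of all genes. Control 7 exceeded Control 6 in 37 of 39 members (94.9%) and in 49.8% of all genes. The part of hepatocyte content in these differences was not tested.

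**Figure D1:**
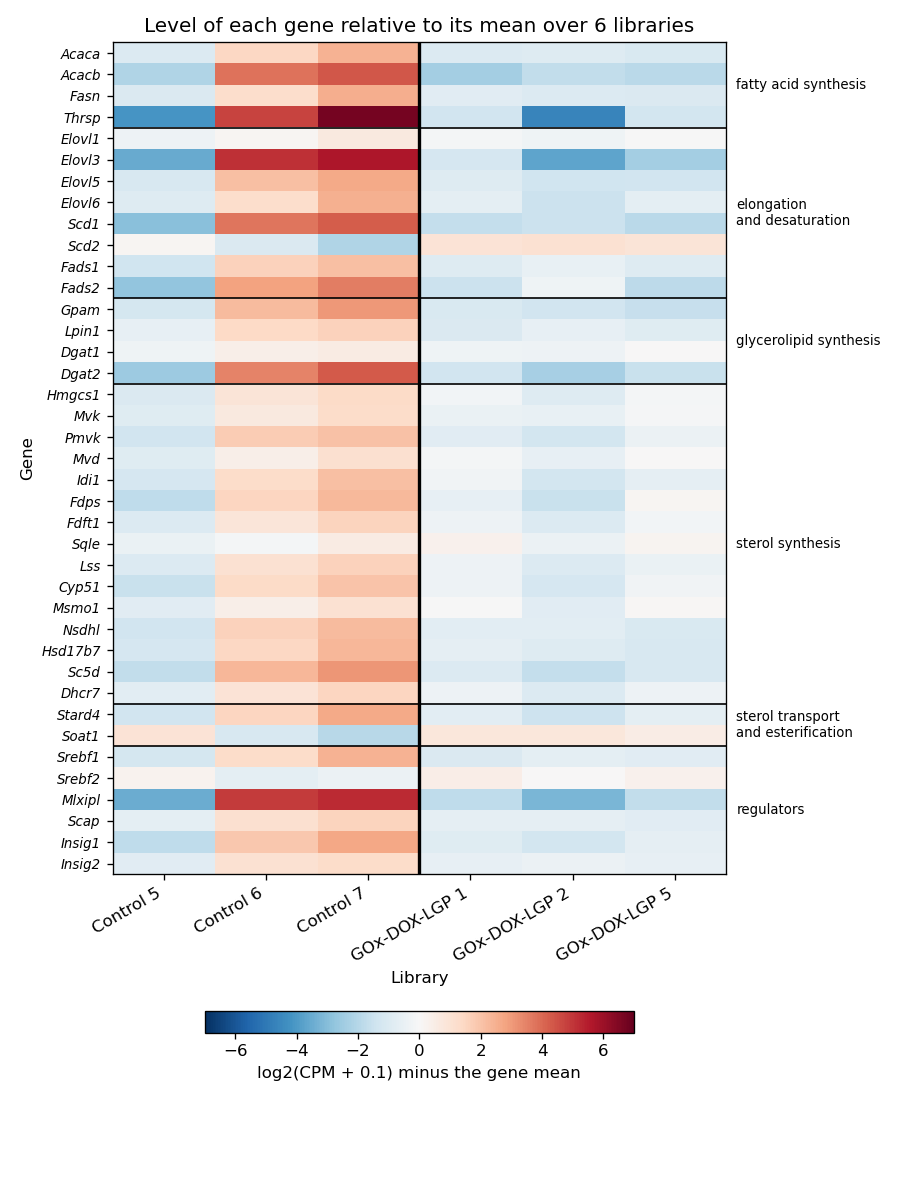
Heat map of the 39 genes (rows, by step) in the 6 libraries (columns), as log2(CPM + 0.1) minus the mean of that gene over the 6 libraries. Red marks levels above the mean, which cover most genes in Controls 6 and 7, while Control 5 shares its blue shades with the 3 GOx-DOX-LGP libraries.

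With all 6 libraries, 0 of 39 members and 0 of 15374 genes (0%) had an adjusted p under 0.05 in edgeR's quasi-likelihood test. At an unadjusted p under 0.05, 24 members (61.5%) were lower in treated tumors, against 14.6% of all genes tested, and 1 member, Scd2, was higher, against 2.87%. The 3 treated values lay entirely below the 3 controls for 1 member, Lpin1 (background 8.31%), and entirely above them for 1, Scd2 (background 8.87%). DESeq2 called 17 members lower at an adjusted p under 0.05 (43.6%), against 9.85% of all genes, and 0 higher, against 0.684%. Thus the members leaned lower in treated tumors more often than genes at large, but under edgeR none passed the adjusted threshold, and Control 5 lay among or below the treated values for 37 of them.

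Leaving out Control 5 changed these counts. edgeR then called 34 members lower at an adjusted p under 0.05 (87.2%), against 25.5% of all genes, and 3 higher (7.69%), against 22.2%. With Control 5 as the only control, it called 0 members and 0% of all genes in either direction, and 35 of 39 members had a positive log2 fold change. At an unadjusted p under 0.05 that fit gave 6 members higher (15.4%; background 3.18%) and 0 lower (background 2.29%). In that fit the lone control is assumed to vary like the treated libraries. So the sign of the log2 fold change for most members depended on which control library the treated tumors were set against. Against Control 5 alone, several of the values were smaller than their standard errors.

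**Figure D2:**
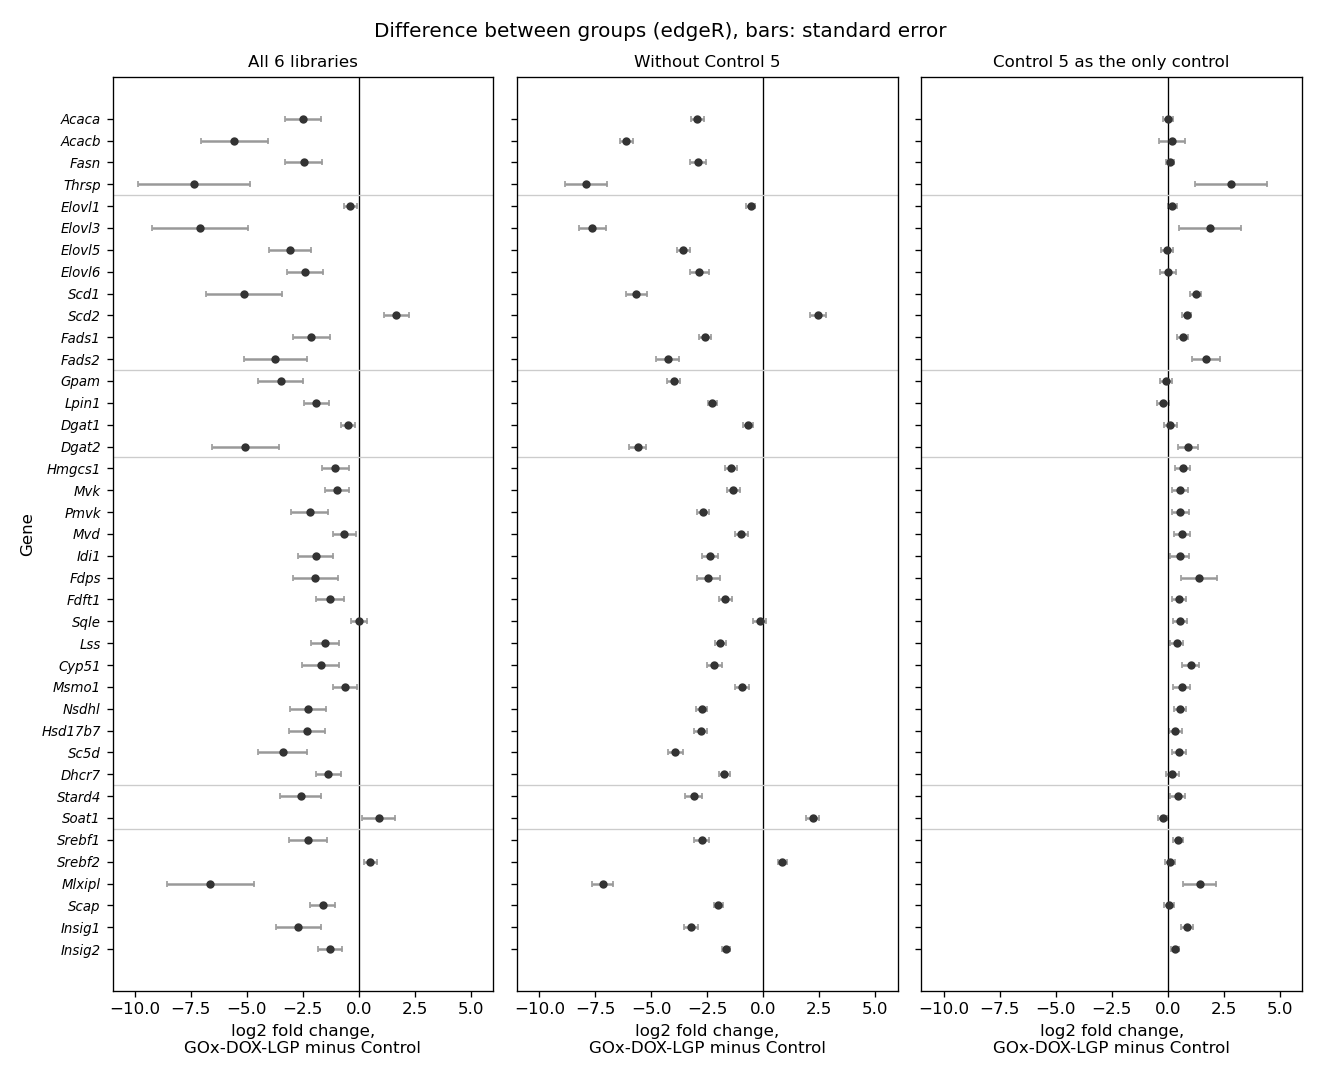
Log2 fold change of each member (GOx-DOX-LGP minus Control, edgeR; bars are standard errors) with all 6 libraries, without Control 5, and with Control 5 as the only control. Points lie mostly left of 0 in the first 2 panels (35 and 36 of 39) and right of 0 in the third (35 of 39).

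The 4 fatty acid synthesis genes had a median log2 fold change of -4.03, beside 0.021 for all genes tested. Acaca, the cytosolic acetyl-CoA carboxylase that makes malonyl-CoA for synthesis, was at 27.4, 146 and 289 CPM in Controls 5, 6 and 7 and at 28.03, 29.2 and 25.1 CPM in GOx-DOX-LGP 1, 2 and 5. Acacb, its mitochondrial relative whose malonyl-CoA restrains fatty acid oxidation, was at 1.18, 78.4 and 112 CPM in Controls 5, 6 and 7 and at 0.989, 1.62 and 1.405 CPM in GOx-DOX-LGP 1, 2 and 5. For both, Controls 6 and 7 were high and Control 5 lay within the treated range. Fasn, which builds palmitate, was at 67.1, 319.7 and 785 CPM in Controls 5, 6 and 7 and at 78.6, 68.5 and 66.9 CPM in GOx-DOX-LGP 1, 2 and 5. Thrsp, a lipogenic regulator known as Spot 14, was at 0.175, 127 and 498 CPM in Controls 5, 6 and 7 and at 1.83, 0.09798 and 1.87 CPM in GOx-DOX-LGP 1, 2 and 5. The log2 fold change was -2.49 ± 0.79 for Acaca, -5.57 ± 1.496 for Acacb, -2.45 ± 0.83 for Fasn and -7.35 ± 2.49 (SE) for Thrsp, and edgeR's adjusted p was 0.247 for all 4. DESeq2 called all 4 lower (adjusted p 5.23e-04 to 0.0335), as did edgeR without Control 5, where the median was -4.53. Set against Control 5 alone, the median was 0.14, and Thrsp rested on 4 counts in Control 5 and 2 in GOx-DOX-LGP 2. About 30.4% of the 50-base stretches of Acaca occur in other genes, mainly the pseudogene Gm5182, so its counts are uncertain.

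Among the 8 elongation and desaturation genes the median was -2.73, and 6 were lower and 1 higher at an unadjusted p under 0.05. Scd1 (chr19:44394455-44407879, minus strand), the main liver stearoyl-CoA desaturase, was at 187, 18718 and 26898 CPM in Controls 5, 6 and 7 and at 440.3, 494 and 386 CPM in GOx-DOX-LGP 1, 2 and 5. Scd2 (chr19:44293674-44306864, plus strand), a desaturase expressed in many tissues besides liver, was at 108, 48.6 and 22.2 CPM in Controls 5, 6 and 7 and at 190.2, 205 and 178 CPM in GOx-DOX-LGP 1, 2 and 5. Scd1 was thus 143-fold higher in Control 7 than in Control 5, whereas Scd2 was highest in the 3 treated tumors, intermediate in Control 5 and lowest in Control 7. Scd1 alone took 10.9%, 68.8% and 65.9% of the members' counts in Controls 5, 6 and 7, compared with 17.1%, 21.2% and 15.95% in GOx-DOX-LGP 1, 2 and 5. Per kilobase of exon, it had the highest level of the 39 genes in every library, from 38.3 CPM per kb in Control 5 to 5498 CPM per kb in Control 7. The log2 fold change was -5.12 ± 1.69 (SE) for Scd1 and 1.68 ± 0.57 (SE) for Scd2, with an adjusted p of 0.247 (edgeR) for both. Scd2 was higher in treated tumors with Control 5 left out (2.46 ± 0.35, edgeR adjusted p = 0.00141), and its value against Control 5 alone was 0.84 ± 0.20 (unadjusted p = 0.00546, edgeR). Scd1 was lower without Control 5 (-5.66 ± 0.46, edgeR adjusted p = 1.03e-04) and higher against Control 5 alone (1.25 ± 0.24, unadjusted p = 0.0017, edgeR). Scd2 therefore kept its direction in both fits, and Scd1 reversed. About 4.56% of Scd1 and 3.97% of Scd2 50-base stretches occur in other genes.

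Of the 2 fatty acid desaturases that make polyunsaturated fats, Fads1 (delta-5) was at 110.2, 884 and 1275 CPM in Controls 5, 6 and 7 and at 158, 207 and 157 CPM in GOx-DOX-LGP 1, 2 and 5. Fads2 (delta-6) was at 17.1, 793 and 1368 CPM in Controls 5, 6 and 7 and at 40.3, 92.3 and 32.5 CPM in GOx-DOX-LGP 1, 2 and 5. For both, all 3 treated tumors were above Control 5 and far below Controls 6 and 7, with GOx-DOX-LGP 2 the highest of the 3. Against Control 5 alone, the log2 fold change was 0.67 ± 0.24 for Fads1 and 1.70 ± 0.63 for Fads2, with unadjusted p of 0.0311 and 0.0334 (edgeR). Elovl5, an elongase of polyunsaturated acids, was at 124, 1192 and 1716 CPM in Controls 5, 6 and 7 and at 148, 103 and 110.0 CPM in GOx-DOX-LGP 1, 2 and 5. Elovl6, which lengthens palmitate, was at 30.01, 130.0 and 311 CPM in Controls 5, 6 and 7 and at 34.9, 19.7 and 34.96 CPM in GOx-DOX-LGP 1, 2 and 5, and Control 5 was within the treated range for both. Elovl3, an elongase of saturated and monounsaturated acids, was at 0.175, 111 and 165 CPM in Controls 5, 6 and 7 and at 1.33, 0.147 and 0.5203 CPM in GOx-DOX-LGP 1, 2 and 5, so it was at most at 1.33 CPM outside Controls 6 and 7. Elovl1, a broadly expressed elongase of very long chains, was at 41.4, 58.9 and 84.5 CPM in Controls 5, 6 and 7 and at 48.7, 42.03 and 51.2 CPM in GOx-DOX-LGP 1, 2 and 5. Its log2 fold change of -0.38 ± 0.30 (edgeR adjusted p = 0.496) did not pass without Control 5 either (adjusted p = 0.0581), and its exons overlap those of Cdc20 on the other strand.

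Glycerolipid synthesis had a median log2 fold change of -2.70. Dgat2, a diacylglycerol acyltransferase prominent in liver, was at 5.18, 349 and 609.6 CPM in Controls 5, 6 and 7 and at 12.3, 6.22 and 10.4 CPM in GOx-DOX-LGP 1, 2 and 5. Dgat1, the more widely expressed enzyme of the same reaction, was at 12.2, 20.1 and 23.03 CPM in Controls 5, 6 and 7 and at 12.3, 11.9 and 15.3 CPM in GOx-DOX-LGP 1, 2 and 5. Dgat2 was 118-fold higher in Control 7 than in Control 5, and Dgat1 was 1.89-fold higher. Gpam, the mitochondrial glycerol-3-phosphate acyltransferase that starts the pathway, was at 26.1, 292 and 512 CPM in Controls 5, 6 and 7 and at 29.1, 24.2 and 20.2 CPM in GOx-DOX-LGP 1, 2 and 5. Lpin1, a phosphatidate phosphatase, was at 19.3, 74.3 and 88.5 CPM in Controls 5, 6 and 7 and at 13.9, 19.01 and 16.02 CPM in GOx-DOX-LGP 1, 2 and 5. For Lpin1 the groups did not overlap, although Control 5 was only slightly above the highest treated tumor. The log2 fold change was -5.06 ± 1.51 for Dgat2, -3.50 ± 1.00 for Gpam, -1.89 ± 0.56 for Lpin1 and -0.49 ± 0.30 (SE) for Dgat1 (edgeR adjusted p = 0.247, 0.247, 0.247 and 0.414). Without Control 5 all 4 were called lower, whereas set against Control 5 alone the values of Gpam and Lpin1 were -0.077 ± 0.27 and -0.23 ± 0.27, smaller than their standard errors.

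**Figure D3:**
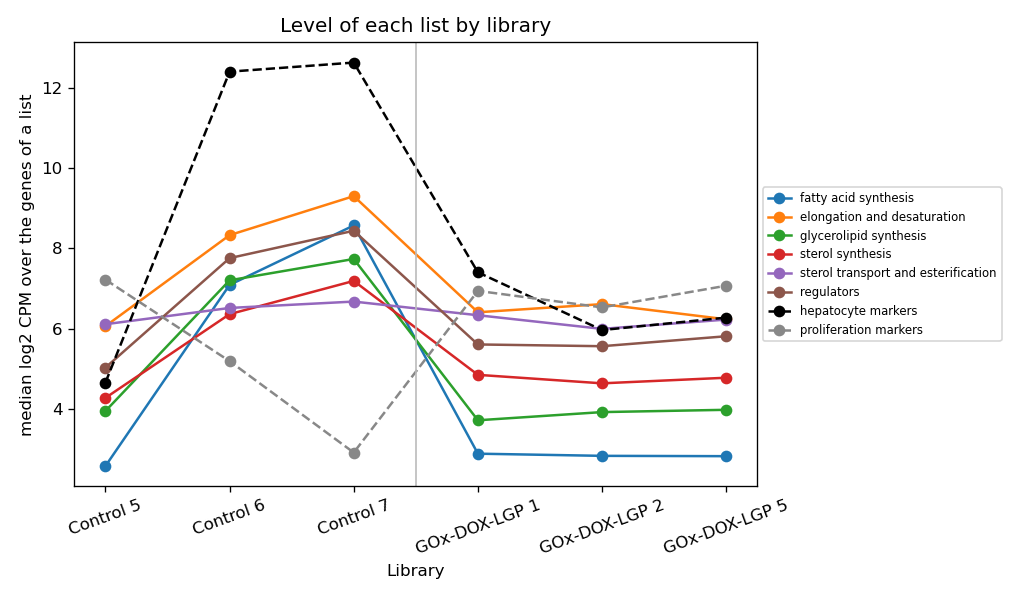
Median log2 CPM over the genes of each list (vertical axis) in each library (horizontal axis), with hepatocyte and proliferation markers dashed. The hepatocyte list and all 6 member lists were higher in Controls 6 and 7 than in the other 4 libraries, the proliferation list was lowest in Controls 6 and 7, and heights of different lists are not scaled for gene length.

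Sterol synthesis, with 15 genes, had a median of -1.499, and 6 genes (40%) were lower at an unadjusted p under 0.05 with all libraries. The median was -0.68 with library totals, a scaling that puts the median of all genes at 0.51, and -0.97 without Control 7. Hmgcs1 was at 68.5, 253 and 345 CPM in Controls 5, 6 and 7 and at 123, 73.7 and 127 CPM in GOx-DOX-LGP 1, 2 and 5. Cyp51, the lanosterol demethylase, was at 28.6, 211 and 330.5 CPM in Controls 5, 6 and 7 and at 65.00, 37.9 and 71.7 CPM in GOx-DOX-LGP 1, 2 and 5. Both were lowest in Control 5, higher in each treated tumor and highest in Controls 6 and 7. Sqle, squalene epoxidase, the enzyme that commits squalene to sterols, was at 64.4, 82.1 and 132 CPM in Controls 5, 6 and 7 and at 113, 67.6 and 102 CPM in GOx-DOX-LGP 1, 2 and 5. Its groups overlapped, with a log2 fold change of 0.021 ± 0.35 (SE; edgeR adjusted p = 0.976), and it was the sterol synthesis gene not called lower when Control 5 was left out. Sc5d, sterol-C5-desaturase, was at 39.5, 657 and 1078 CPM in Controls 5, 6 and 7 and at 67.5, 40.8 and 59.3 CPM in GOx-DOX-LGP 1, 2 and 5. Hsd17b7, a ketosterol reductase, was at 12.6, 78.6 and 146 CPM in Controls 5, 6 and 7 and at 18.7, 15.2 and 13.4 CPM in GOx-DOX-LGP 1, 2 and 5. These were the 2 sterol synthesis genes that DESeq2 called lower (adjusted p 0.00977 and 0.0478).

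Early mevalonate enzymes showed a similar order of libraries. Mvk was at 5.57, 16.5 and 24.97 CPM in Controls 5, 6 and 7 and at 7.32, 7.05 and 9.73 CPM in GOx-DOX-LGP 1, 2 and 5. Pmvk, which adds the next phosphate, was at 7.85, 68.01 and 83.7 CPM in Controls 5, 6 and 7 and at 11.6, 8.13 and 14.9 CPM in GOx-DOX-LGP 1, 2 and 5. Both were lowest in Control 5. Mvd, which removes the carboxyl group, was at 6.01, 14.1 and 23.6 CPM in Controls 5, 6 and 7 and at 9.84, 7.25 and 10.8 CPM in GOx-DOX-LGP 1, 2 and 5. Idi1, the isopentenyl diphosphate isomerase, was at 12.9, 72.9 and 126 CPM in Controls 5, 6 and 7 and at 24.8, 12.1 and 18.8 CPM in GOx-DOX-LGP 1, 2 and 5. In all 4 genes Controls 6 and 7 were higher than the treated tumors, and GOx-DOX-LGP 2 was the lowest treated tumor. Fdft1, squalene synthase, was at 50.6, 179 and 296 CPM in Controls 5, 6 and 7 and at 76.7, 51.8 and 87.2 CPM in GOx-DOX-LGP 1, 2 and 5. Fdps, farnesyl diphosphate synthase, was at 0.834, 9.16 and 15.3 CPM in Controls 5, 6 and 7 and at 2.08, 0.9798 and 3.49 CPM in GOx-DOX-LGP 1, 2 and 5. Counts for several of these are uncertain, since 25.3% of Idi1, 26.5% of Fdft1, 26.2% of Fdps and 11.6% of Hmgcs1 50-base stretches occur in other genes. The strand setting of the counting was not given in the sources used here, and Fdft1 shares exon bases with Ctsb on the other strand. Fdps shares 1124 exon bases with the protein-coding gene Gm43738 on the same strand.

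The later enzymes of the pathway were also highest in Controls 6 and 7. Lss, which closes the sterol ring, was at 19.3, 78.8 and 115 CPM in Controls 5, 6 and 7 and at 28.7, 19.2 and 27.3 CPM in GOx-DOX-LGP 1, 2 and 5. Msmo1, a methylsterol monooxygenase, was at 95.8, 225 and 357 CPM in Controls 5, 6 and 7 and at 167, 95.4 and 178 CPM in GOx-DOX-LGP 1, 2 and 5. In both, GOx-DOX-LGP 2 was close to Control 5. Nsdhl, a sterol dehydrogenase, was at 16.1, 126 and 195 CPM in Controls 5, 6 and 7 and at 24.8, 24.8 and 19.98 CPM in GOx-DOX-LGP 1, 2 and 5. Dhcr7, which makes cholesterol from its 7-dehydro precursor, was at 33.4, 107 and 155 CPM in Controls 5, 6 and 7 and at 42.8, 28.95 and 42.98 CPM in GOx-DOX-LGP 1, 2 and 5. Msmo1 differed least between groups among these 4 (log2 fold change -0.62 ± 0.52, SE), and Nsdhl most (-2.27 ± 0.82). With Control 5 as the only control, all 15 sterol synthesis genes had positive log2 fold changes, with a median of 0.55 beside 0.035 for all genes. Among them, Cyp51 was the single gene past the unadjusted edgeR threshold, with a log2 fold change of 1.04 ± 0.38 (SE). Control 5 was below all 3 treated tumors for 11 of the 15 (73.3%), against 26.0% of all genes tested.

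The treated tumors were not alike for sterol genes. As a ratio of CPM to Control 5, the median over the 15 genes was 1.64 in GOx-DOX-LGP 1, 1.05 in GOx-DOX-LGP 2 and 1.72 in GOx-DOX-LGP 5. GOx-DOX-LGP 2 was the lowest treated tumor for 13 of 15 sterol synthesis genes (86.7%) and for 24 of all 39 members (61.5%), against 39.1% of all genes. The elevation over Control 5 was therefore carried by GOx-DOX-LGP 1 and 5. Several marker sums also set GOx-DOX-LGP 2 apart from GOx-DOX-LGP 1 and 5. Macrophage markers were the highest, at 848 CPM against 297 and 392 CPM, and fibroblast markers were the highest, at 4364 CPM against 3400.2 and 1564 CPM. The hepatocyte sum was the lowest, at 1237 CPM against 3145 and 1746 CPM, as was the proliferation sum, at 551 CPM against 669.7 and 663 CPM. Mki67, at 284, 260 and 238 CPM, and Cyp2e1, at 157, 71.3 and 64.0 CPM, were instead lowest in GOx-DOX-LGP 5. The other hepatocyte and proliferation markers were lowest in GOx-DOX-LGP 2. The part of the marker lists in the result was not tested.

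**Figure D4:**
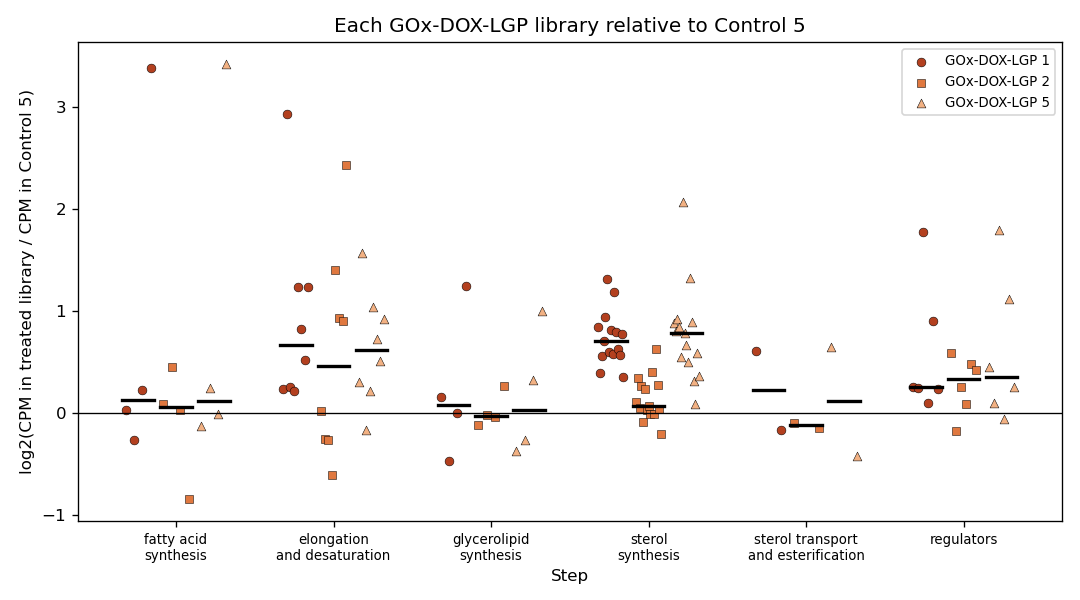
Log2 ratio of CPM in each GOx-DOX-LGP library to Control 5 (vertical axis) for the genes of each step (horizontal axis), with 1 point per gene and black bars at the medians. For sterol synthesis, GOx-DOX-LGP 1 and 5 sit above the line and GOx-DOX-LGP 2 close to it.

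Soat1, an acyl-CoA:cholesterol acyltransferase that stores cholesterol as esters and is expressed in many cell types, was at 198, 47.5 and 26.8 CPM in Controls 5, 6 and 7 and at 177, 180.0 and 148 CPM in GOx-DOX-LGP 1, 2 and 5. Stard4, a sterol transfer protein, was at 23.9, 176 and 387 CPM in Controls 5, 6 and 7 and at 36.6, 22.4 and 37.6 CPM in GOx-DOX-LGP 1, 2 and 5. Soat1 ran opposite to most members across the controls, with Control 5 above all treated tumors and Controls 6 and 7 below all of them. Its log2 fold change was 0.89 ± 0.73 (SE) with all libraries, 2.21 ± 0.29 without Control 5 (edgeR adjusted p = 9.50e-04) and -0.22 ± 0.21 against Control 5 alone. For Stard4 the corresponding values were -2.60 ± 0.92, -3.09 ± 0.38 and 0.44 ± 0.34.

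The 6 regulators had a median log2 fold change of -1.94, which was -1.10 with library totals and -1.24 without Control 7. Mlxipl, which encodes ChREBP, was at 1.23, 429.9 and 551 CPM in Controls 5, 6 and 7 and at 4.201, 1.47 and 4.27 CPM in GOx-DOX-LGP 1, 2 and 5, a 449-fold difference between Control 7 and Control 5. Srebf1, which encodes SREBP-1, was at 29.7, 171 and 379 CPM in Controls 5, 6 and 7 and at 35.4, 44.5 and 40.5 CPM in GOx-DOX-LGP 1, 2 and 5. Srebf2, which encodes SREBP-2, was at 97.1, 52.8 and 63.2 CPM in Controls 5, 6 and 7 and at 116, 86.4 and 104 CPM in GOx-DOX-LGP 1, 2 and 5. Thus Mlxipl and Srebf1 were highest in Controls 6 and 7, while Srebf2 was lowest there. Insig1, itself an SREBP target, was at 35.8, 446 and 781 CPM in Controls 5, 6 and 7 and at 66.7, 49.9 and 77.4 CPM in GOx-DOX-LGP 1, 2 and 5. Insig2, which is not induced in the same way, was at 73.7, 272 and 317 CPM in Controls 5, 6 and 7 and at 86.6, 98.7 and 87.8 CPM in GOx-DOX-LGP 1, 2 and 5. Insig1 was above Control 5 in each treated tumor (log2 fold change against Control 5 alone 0.87 ± 0.28, unadjusted p = 0.0205, edgeR), and below Controls 6 and 7 in each. Scap was at 26.1, 94.1 and 128 CPM in Controls 5, 6 and 7 and at 28.1, 27.8 and 25.1 CPM in GOx-DOX-LGP 1, 2 and 5, with Control 5 within the treated range. About 9.96% of Scap 50-base stretches occur in 5830462I19Rik, whose exons overlap on the other strand, so its counts are uncertain. With all libraries the log2 fold changes were -6.62 ± 1.95 for Mlxipl, -2.27 ± 0.83 for Srebf1, 0.52 ± 0.29 for Srebf2, -2.70 ± 1.00 for Insig1, -1.28 ± 0.54 for Insig2 and -1.61 ± 0.55 (SE) for Scap, with edgeR adjusted p of 0.247 to 0.378.

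Ratios of related genes within a library do not depend on scaling between libraries, and 7 pairs were compared on the log2 scale of counts, unscaled for length. The Scd1/Scd2 ratio was 0.80, 8.59 and 10.24 among Controls 5, 6 and 7, compared with 1.21, 1.27 and 1.12 among GOx-DOX-LGP 1, 2 and 5. Control 5 thus lay close to the treated tumors and far below the other controls. The Dgat2/Dgat1 ratio was -1.23, 4.11 and 4.72 among Controls 5, 6 and 7, compared with 0, -0.93 and -0.56 among GOx-DOX-LGP 1, 2 and 5. The Srebf1/Srebf2 ratio was -1.71, 1.69 and 2.58 among Controls 5, 6 and 7, compared with -1.71, -0.95 and -1.36 among GOx-DOX-LGP 1, 2 and 5. Both were above 0 in Controls 6 and 7 alone. The Elovl3/Elovl1 ratio was -7.56, 0.91 and 0.97 among Controls 5, 6 and 7, compared with -5.14, -7.75 and -6.48 among GOx-DOX-LGP 1, 2 and 5. The Acacb/Acaca ratio was -4.48, -0.89 and -1.36 among Controls 5, 6 and 7, compared with -4.76, -4.13 and -4.11 among GOx-DOX-LGP 1, 2 and 5. In all 5 pairs the ratio was highest in Controls 6 and 7. Elovl6/Elovl5 (difference 0.53, treated minus control) and Insig2/Insig1 (0.84) went the other way. The groups overlapped for all 7, the two-sided exact permutation p was 0.3 or 0.4, and the Benjamini-Hochberg adjusted p was 0.4, where 3 against 3 libraries cannot go below 0.1.

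**Figure D5:**
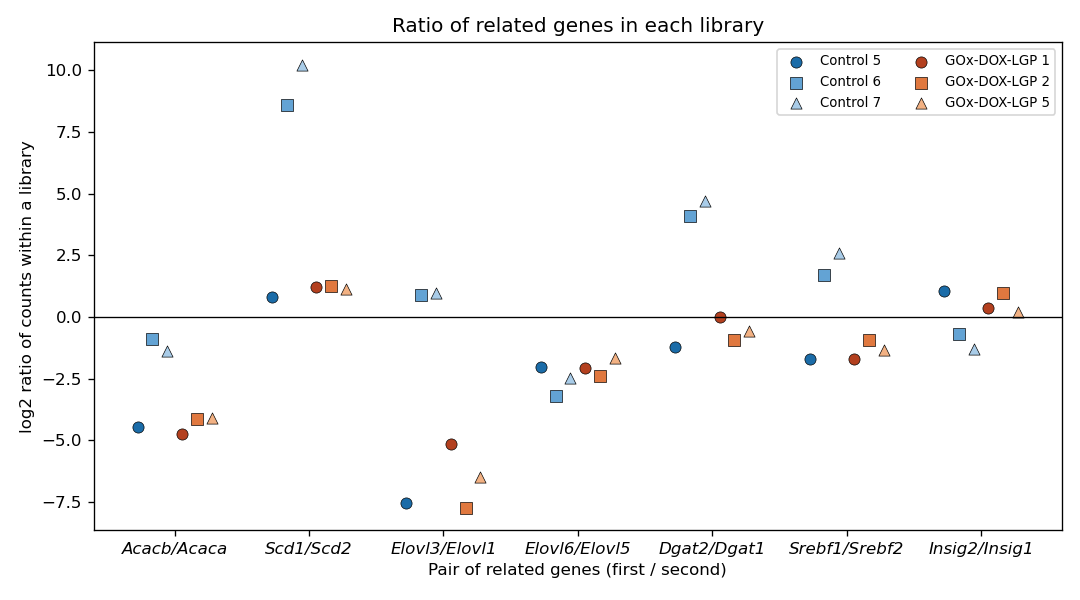
Log2 ratio of counts of 7 pairs of related genes (horizontal axis) in each library (blue, controls; orange, GOx-DOX-LGP). For Scd1/Scd2 the treated tumors lie between 1.12 and 1.27, next to Control 5 at 0.80, while Controls 6 and 7 lie at 8.59 and 10.24.

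A wider list of 44 genes of the same pathways was measured beside the members, of which 40 passed the filter on low counts. At an unadjusted p under 0.05 in edgeR with all libraries, 17 of the 40 were lower and 1 was higher, beside 14.6% of all genes tested lower and 2.87% higher. By group, against the same 14.6%, 8 of 14 fatty acid genes, 3 of 10 glycerolipid genes, 4 of 8 sterol genes and 2 of 8 regulators were lower, and the gene that was higher was in the glycerolipid list. Elovl2, an elongase of polyunsaturated acids, was at 5.09, 1127 and 1912 CPM in Controls 5, 6 and 7 and at 19.2, 7.495 and 9.16 CPM in GOx-DOX-LGP 1, 2 and 5. Acss2, which makes acetyl-CoA from acetate, was at 5.001, 116 and 189 CPM in Controls 5, 6 and 7 and at 9.84, 6.61 and 6.87 CPM in GOx-DOX-LGP 1, 2 and 5. Both were highest in Controls 6 and 7. Agpat2, an acyltransferase of the second glycerolipid step, was at 7.502, 119 and 185 CPM in Controls 5, 6 and 7 and at 12.6, 13.7 and 10.4 CPM in GOx-DOX-LGP 1, 2 and 5. Lpin2, a relative of Lpin1, was at 72.8, 233 and 253 CPM in Controls 5, 6 and 7 and at 72.96, 78.5 and 64.6 CPM in GOx-DOX-LGP 1, 2 and 5. For Agpat2 Control 5 was the lowest library, and for Lpin2 it was within the treated range. Soat2, the cholesterol acyltransferase of liver and intestine, was at 2.59, 34.2 and 44.4 CPM in Controls 5, 6 and 7 and at 2.22, 1.18 and 2.39 CPM in GOx-DOX-LGP 1, 2 and 5, in contrast to Soat1. Tm7sf2, a sterol reductase, was at 4.74, 95.9 and 127 CPM in Controls 5, 6 and 7 and at 7.32, 4.02 and 6.56 CPM in GOx-DOX-LGP 1, 2 and 5. Both were low outside Controls 6 and 7. Nr1h3, which encodes the oxysterol receptor LXR alpha, was at 11.1, 73.8 and 106 CPM in Controls 5, 6 and 7 and at 12.7, 11.95 and 12.6 CPM in GOx-DOX-LGP 1, 2 and 5. Its 3 treated values lay above Control 5 and below Controls 6 and 7. For Soat2 the treated tumors lay below all 3 controls. The log2 fold changes ran from -6.41 ± 1.89 for Elovl2 to -1.37 ± 0.48 (SE) for Lpin2 among these 7 genes, with edgeR adjusted p of 0.247 to 0.249.

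Other cell markers moved between libraries too. The 4 fibroblast markers summed to 4121, 1156 and 986 CPM in the 3 controls and to 3400.2, 4364 and 1564 CPM in GOx-DOX-LGP 1, 2 and 5. The 4 T cell markers summed to 65.0, 39.4 and 21.2 CPM in the controls and to 87.0, 89.4 and 122 CPM in the treated tumors, and the 4 endothelial markers to 99.6, 197 and 226 CPM and to 86.6, 84.1 and 71.4 CPM. Endothelial markers were thus highest, and T cell and fibroblast markers lowest, in Controls 6 and 7 among the controls. Macrophage markers summed to 328, 426 and 273 CPM in the controls, and 3 liver cancer markers to 4.60 to 17.5 CPM over all libraries. The 5 adipocyte markers summed to at most 0.468 CPM in any library, and 0 of them passed the filter on low counts, so markers of fat tissue were at or near 0. The part of the other lists in the lipogenic levels was not tested.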

How the data were processed

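Tumor RNA for 3 Control and 3 GOx-DOX-LGP libraries was prepared with a KAPA mRNA kit. The authors deposited raw counts for 55536 genes and, for 34685 of them, signal values that are those counts divided by a size factor per library (100% of values came out whole after rescaling, tolerance 0.01). The submitters' processing notes name Trimmomatic 0.38, HISAT2 2.1.0 and featureCounts 2.0.0, whereas the methods name TopHat and HTSeq. Build, annotation release and strand setting were not given in the sources used here, and replicates were not pooled.

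Raw counts were filtered with filterByExpr, which kept 15374 genes and all 39 members, normalized with TMM, and tested with edgeR 4.0.16 (quasi-likelihood, R 4.3.3) with no covariate. P-values were adjusted over all genes tested (Benjamini-Hochberg, threshold 0.05). The standard error is the log2 fold change divided by the square root of F. CPM in the text carries no prior count, and pair ratios used a pseudocount of 1. DESeq2 1.42.0, limma 3.58.1 (voom with sample quality weights), other scalings, no filter, leaving out each library and the whole reads recovered from the normalized table were alternatives, the last of these, the DESeq2 runs without a library and every alternative for the other genes of the pathways chosen after values had been seen. The steps were tested on simulated counts. Coordinates and shared 50-base stretches come from GENCODE M21 (GRCm38), where 55450 of 55536 gene IDs matched. Library totals of 15529940 to 18401178, scaled by the TMM factors, put 3 counts at 0.132 to 0.323 CPM, which covers counting error only.

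Every member was named, along with the 2 genes of each wider list with the largest absolute log2 fold change, Alb and Afp. One gene that this rule names is not reported here. Members and lists were chosen with earlier results of these data known. The labels number the libraries of a group but do not state that each came from a separate mouse, so p-values measure the spread between these samples, which may be technical. Figures used Python 3.11.15 and matplotlib 3.10.9.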

Additional observations from a re-analysis of the deposited data

How the results depend on the processing

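Of the 39 members, 0 were called at an adjusted p under 0.05 with edgeR, 17 with DESeq2 and 36 with voom, and 0 to 37 when 1 library was left out, the 37 without Control 5. Over all genes the calls were 0 of 15374 with edgeR, 1739 of 16513 with DESeq2 and 9254 of 15374 with voom. They ranged from 0 to 7745 without 1 library, the 7745 being of 16249 genes without Control 5. At an unadjusted p under 0.05, 25 members were called, 14 with library totals, 38 with voom and 1 to 38 without 1 library. In edgeR with all libraries, 2.87% of all genes were higher and 14.6% lower at that threshold. DESeq2's 17 members became 4 to 37 without 1 library. The wider pathway list went from 18 genes to 8 with library totals, 32 with voom, 2 with Control 5 alone and 2 to 33 without 1 library. Members whose groups did not overlap went from 1 higher to 2 with library totals and 1 to 3 without 1 library, and from 1 lower to 1 to 35. Without Control 5, 35 were lower (89.7%), against 34.7% of all genes, and 3 higher (7.69%), against 37.2%. For the remaining unadjusted, DESeq2 and overlap counts under these alternatives, no share of all genes was obtained. Those member counts therefore cannot be read against a background. The cause was not tested in any of these.

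With Control 5 as the only control, the median log2 fold change was 0.14 for fatty acid synthesis, 0.76 for elongation and desaturation, 0.023 for glycerolipid synthesis, 0.55 for sterol synthesis, 0.11 for sterol transport and esterification and 0.39 for regulators. The sterol transport and esterification median, over 2 genes of opposite direction, was also -0.31 with library totals, -0.26 with voom and -1.05 to -0.44 without 1 library. Of the 39 members, 33 changed sign against Control 5 alone (Acaca 0.019, Acacb 0.19, Fasn 0.10, Thrsp 2.82, Elovl1 0.21, Elovl3 1.91, Elovl6 0.0073, Scd1 1.25, Fads1 0.67, Fads2 1.70, Dgat1 0.12, Dgat2 0.91, Hmgcs1 0.67, Mvk 0.54, Pmvk 0.57, Mvd 0.64, Idi1 0.54, Fdps 1.39, Fdft1 0.52, Lss 0.40, Cyp51 1.04, Msmo1 0.63, Nsdhl 0.55, Hsd17b7 0.34, Sc5d 0.51, Dhcr7 0.21, Stard4 0.44, Soat1 -0.22, Srebf1 0.45, Mlxipl 1.44, Scap 0.062, Insig1 0.87, Insig2 0.32). Several of these values were smaller than their standard error, such as Acaca (± 0.22), Fasn (± 0.20), Elovl6 (± 0.36) and Scap (± 0.22). For those genes the sign change marks a difference near 0. Others, such as Scd1 (± 0.24), exceeded it. With library totals, which shift the median of all genes to 0.51, 4 members changed sign (Elovl1 0.28, Dgat1 0.16, Mvd 0.12, Msmo1 0.14), and Sqle ranged from -0.15 to 0.36 without 1 library. The ratios of 6 pairs changed sign against Control 5 alone (Acacb/Acaca 0.15, Scd1/Scd2 0.40, Elovl3/Elovl1 1.10, Dgat2/Dgat1 0.73, Srebf1/Srebf2 0.37, Insig2/Insig1 -0.53). The other filters, the DESeq2 size factors in edgeR, the recovered reads and the other pseudocounts moved none of these counts or medians by over 1.5 times or 1 SD and changed no sign of a member or pair.

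No paired analysis was possible because the groups share a single replicate number, 5. Depth put 3 counts at 0.132 to 0.323 CPM, so Thrsp and Elovl3 were at or near that level in Control 5 and GOx-DOX-LGP 2.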
